A study of Rattus norvegicus with 16 samples.

Results

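Hippocampus and frontal cortex of old rats were compared gene by gene on 8 of the 16 one-colour Agilent arrays of the series, 4 per region, chosen by the source name that the labels give each array. The old rats were 26 months old, male and of the inbred LOU/C/Jall strain, and the labels name no treatment beside the anaesthetic. The other 8 arrays hold the same regions of young rats of that strain, whose age is 5 months in the sample labels and 3 months in the series text. Each array carries the RNA of 1 dissected region of a rat decapitated under isoflurane. Arrays are named here by the letter codes of their titles, AF, AG, AH and AI, each of which occurs once per region. The labels do not say that a code stands for 1 animal, so the p-values measure the spread between these arrays, which may be technical in part.

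The hippocampus holds the granule cells of the dentate gyrus and the pyramidal cells of the CA fields in single packed layers, and it borders the lateral ventricle with its choroid plexus and ciliated lining. The frontal cortex is a layered sheet: upper layers connect cortical areas, layer 5 projects to subcortical targets and layer 6 to the thalamus, and the striatum lies beneath it. Both regions consist mainly of excitatory neurons that use glutamate, with inhibitory interneurons, glia and vessels. Their identities are set in development by transcription factors such as those of the homeodomain and basic helix-loop-helix (bHLH) families, and adult neurons of each region keep their own sets of receptors, channels and adhesion proteins.

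The promoters of 4 genes with large differences between the regions are shown, because transcription factors that bind E-boxes, the short sites of bHLH proteins, were among the genes that differed. The neuronal bHLH factor Nhlh1 and the membrane receptor Fibcd1 were higher in hippocampus, and the heparan sulfate sulfotransferase Hs3st2 and the cartilage matrix protein Ucma were lower. The sequences are from RefSeq on build GRCr8, 5′ to 3′ on the gene's strand, from 250 bases before to 50 bases after the gene's start. Capitals mark the E-box letters CAGCTG and CAGATG, looked for on both strands.
Nhlh1, chr13:87054885-87055184, minus strand: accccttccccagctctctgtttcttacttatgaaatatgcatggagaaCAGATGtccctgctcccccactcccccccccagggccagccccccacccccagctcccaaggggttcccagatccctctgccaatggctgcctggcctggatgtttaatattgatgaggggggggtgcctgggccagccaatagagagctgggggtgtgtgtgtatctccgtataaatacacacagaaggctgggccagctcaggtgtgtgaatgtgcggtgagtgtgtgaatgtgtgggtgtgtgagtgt
Fibcd1, chr3:35524093-35524392, minus strand: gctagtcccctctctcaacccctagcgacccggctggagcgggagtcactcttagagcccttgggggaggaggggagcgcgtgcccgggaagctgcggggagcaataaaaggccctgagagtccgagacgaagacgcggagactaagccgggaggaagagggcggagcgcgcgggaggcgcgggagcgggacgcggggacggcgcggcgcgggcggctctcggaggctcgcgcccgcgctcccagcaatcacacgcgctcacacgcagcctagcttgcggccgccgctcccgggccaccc
Hs3st2, chr1:185387213-185387512, plus strand: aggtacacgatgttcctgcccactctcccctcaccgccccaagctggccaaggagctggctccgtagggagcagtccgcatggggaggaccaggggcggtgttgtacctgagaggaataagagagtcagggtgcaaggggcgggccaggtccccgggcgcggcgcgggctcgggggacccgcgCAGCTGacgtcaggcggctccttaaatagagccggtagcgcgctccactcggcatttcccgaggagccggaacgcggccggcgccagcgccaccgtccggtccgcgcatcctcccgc
Ucma, chr17:78212947-78213246, minus strand: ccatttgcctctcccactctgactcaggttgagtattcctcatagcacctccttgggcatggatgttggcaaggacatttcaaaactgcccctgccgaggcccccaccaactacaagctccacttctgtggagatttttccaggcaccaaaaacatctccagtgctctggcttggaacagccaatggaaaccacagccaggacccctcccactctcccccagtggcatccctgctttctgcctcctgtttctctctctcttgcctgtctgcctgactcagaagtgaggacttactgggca
Nhlh1 has 1 match to CAGATG and Hs3st2 has 1 match to CAGCTG, while the windows of Fibcd1 and Ucma hold 0 matches. CAGCTG stands in 15.1% of the 27457 promoters in the table. It stands in 16% of the promoters of tested genes, in 21.8% of those of genes at least 2-fold higher in hippocampus and in 23.8% of those at least 2-fold lower. CAGATG stands in 16.3% of all promoters, in 10.9% of those of tested genes, in 18.2% of those at least 2-fold higher and in 18.1% of those at least 2-fold lower. A match describes the letters and is no evidence of binding.

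The regions were told apart by 1879 of 10056 tested genes, which is 18.7% (limma, adjusted p under 0.05 over all tested genes). Of these, 970 were higher in hippocampus (9.65% of the tested genes) and 909 were lower (9.04%). The 4 arrays of one region did not overlap with the 4 of the other in 1737 genes, or 17.3%. A difference of 2-fold or more was reached by 159 called genes higher in hippocampus and 140 lower, and 4-fold or more by 26 and 16. Over all tested genes the median difference was 0.012 log2, a value near 0 that the centring of the arrays sets, and the median SE of a called gene was 0.12 log2. Differences are hippocampus minus frontal cortex on the log2 scale, with the moderated SE and n = 4 arrays per region. Levels are log2 signals after each array was shifted to a common upper quartile, listed in the order AF, AG, AH, AI.

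Arrays of the same region correlated at r of 0.975 to 0.992 in hippocampus and 0.978 to 0.993 in frontal cortex, and arrays of different regions at 0.949 to 0.981 (Pearson, across genes). Some arrays also differed in markers of tissue that borders the regions. The mean of the choroid plexus list, given as the deviation from each gene's mean over the series, was 0.06, -0.73, 1.88 and 3.03 log2 in hippocampus, against -1.11, -1.08, -1.13 and -0.95 in frontal cortex. The mean of the list of striatal medium spiny neurons was -0.39, -0.39, -0.38 and -0.57 in hippocampus, against 0.11, 1.53, 0.23 and 0.34 in frontal cortex. Hippocampus arrays AH and AI thus stood apart in choroid plexus genes and cortex array AG in striatal genes. Without these 3 arrays 1245 genes were called, 579 higher and 666 lower. Erythrocyte genes were high on array AF of both regions. Their means were 0.78, -0.39, 0.04 and -0.09 in hippocampus, and 0.85, -0.51, 0.08 and 0.05 in frontal cortex. Array AG was thus the lowest in both regions. In bulk tissue, fewer cells of a type and less RNA per cell cannot be told apart.

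**Figure D1:**
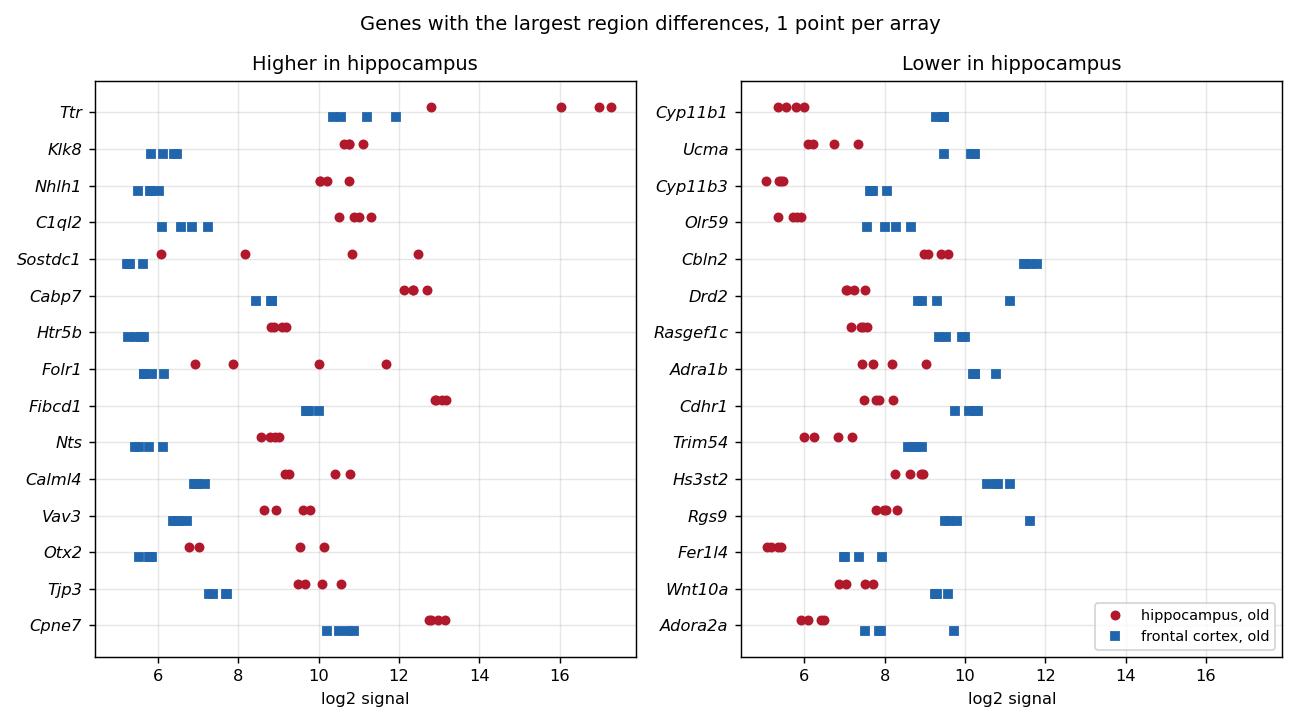
Log2 signal of the 15 genes with the largest positive differences (left) and the 15 with the largest negative differences (right), 1 point per array, hippocampus above frontal cortex within each gene. Only called genes in which the 4 arrays of one region lie apart from the 4 of the other were eligible. The choroid plexus genes Ttr, Sostdc1, Folr1 and Otx2 spread most among hippocampus arrays.

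Neuronal genes made up many of the largest rises, below Ttr, a choroid plexus gene described with the ventricle. Klk8, the secreted serine protease neuropsin, had 10.77, 10.75, 11.11 and 10.63 in hippocampus, against 6.47, 6.12, 5.84 and 6.4 in frontal cortex. Nhlh1 had 10.04, 10.2, 10.76 and 10.03 in hippocampus, against 6.04, 5.51, 5.83 and 5.8 in frontal cortex. For both, every cortex array lay below the intensity minimum of 6.49, the 40th percentile of probe means, so only a bound is given: Klk8 was at least 20-fold and Nhlh1 at least 13.6-fold higher in hippocampus (adjusted p = 2.18e-12 and 5.98e-11). Here and below such a bound sets the brighter region's mean against the dim region's arrays, each raised to 6.49 where it lies lower.

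C1ql2, a secreted protein that in mouse organises mossy fibre synapses of granule cells, had 10.52, 10.89, 11.3 and 11.01 in hippocampus, against 6.1, 7.25, 6.58 and 6.85 in frontal cortex. It was 4.24 ± 0.24 log2 higher, or 18.8-fold (adjusted p = 5.92e-09). The calcium-binding protein Cabp7 had 12.12, 12.34, 12.7 and 12.35 in hippocampus, against 8.45, 8.85, 8.84 and 8.82 in frontal cortex. Its difference was 3.64 ± 0.14 (12.5-fold), and the narrow spread within each region was small beside it. Fibcd1, a receptor for acetylated groups that marks CA1 pyramidal cells in mouse, had 12.91, 13.17, 13.07 and 12.93 in hippocampus, against 9.7, 9.76, 10.01 and 9.69 in frontal cortex, a difference of 3.23 ± 0.12 (9.4-fold). The 4 probes of Fibcd1 agreed in sign but gave differences of 1.17 to 3.23 log2. Further down the order stood the calmodulin-like protein Calml4 (2.91 ± 0.35) and the guanine nucleotide exchange factor Vav3 (2.73 ± 0.23). Below these stood the tight junction protein Tjp3 (2.44 ± 0.17) and the copine Cpne7 (2.34 ± 0.13), a calcium-dependent membrane-binding protein. In hippocampus Calml4 had 9.17, 9.27, 10.41 and 10.79, Vav3 8.63, 8.94, 9.61 and 9.78, and Tjp3 9.5, 9.66, 10.55 and 10.08. Arrays AH and AI were thus highest for Calml4, Vav3 and Tjp3, as in the choroid plexus list. Whether these 3 rises are neuronal was not tested.

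By field, the list of genes common to hippocampal pyramidal and granule cells had 10 of 11 tested members higher and 0 lower, with a median difference of 0.97 log2 against 0.012 over all genes. Among them were Nr3c2, the mineralocorticoid receptor (1.36 ± 0.11), the calcium sensor hippocalcin, Hpca (1.18 ± 0.11), the LIM-only cofactor Lmo1 (1.55 ± 0.08) and Zbtb20, a zinc finger repressor needed in mouse for CA1 identity (0.97 ± 0.2). Nr3c2 had 9.89, 9.73, 9.85 and 9.55 in hippocampus, against 8.39, 8.5, 8.47 and 8.25 in frontal cortex. The hippocampus arrays all lay more than 1 log2 above the cortex arrays for this gene.

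The dentate gyrus list had 5 of 10 members higher and 1 lower. Beside C1ql2, the granule cell factor Neurod1 was 1.67 ± 0.12 higher and the polo-like kinase Plk5 1.12 ± 0.28. The vesicle protein synaptoporin, Synpr, was lower (-0.75 ± 0.13). For Plk5 the arrays of the regions overlapped, and it was not called without hippocampus arrays AH and AI and cortex array AG. Prox1, the factor that defines granule cells, was on the array but below the minimum in all groups and was not tested. In the CA3 list 3 of 7 members were higher and 1 lower: the apoptosis regulator Bok (1.32 ± 0.15) and the kainate receptor subunit Grik4 (0.74 ± 0.16) were higher, and the protease neurotrypsin, Prss12, was lower (-0.72 ± 0.14). In the CA2 list 3 of 7 were higher and 0 lower, led by neurotrophin 3, Ntf3, which was at least 2.03-fold higher, and with the signalling regulator Rgs14 (0.96 ± 0.11) and the calcium-binding Necab2 (0.98 ± 0.16). In the CA1 and subiculum list 4 of 9 were higher, with Wfs1, a membrane protein of the endoplasmic reticulum (1.37 ± 0.2), and the POU factor Pou3f1 (1.09 ± 0.11), and 1 was lower, the potassium channel gene Kcnh7 (-1.12 ± 0.15). Calb1, the calcium buffer of granule and CA1 cells, did not pass (0.35 ± 0.18, adjusted p = 0.201), and without cortex array AG its difference was 0.1.

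On the cortical side, Cbln2, a secreted synapse organiser, had 9.4, 9.58, 9.07 and 8.98 in hippocampus, against 11.46, 11.5, 11.63 and 11.8 in frontal cortex. It was lower in hippocampus by -2.34 ± 0.13 log2 (adjusted p = 5.64e-09), and its 10 kept probes gave differences of -2.39 to -2.15. Hs3st2, a sulfotransferase known from layer 5 neurons in rodents, had 8.91, 8.95, 8.63 and 8.26 in hippocampus, against 10.55, 11.13, 10.77 and 10.82 in frontal cortex, a difference of -2.13 ± 0.16. Ucma had 6.73, 6.08, 7.34 and 6.21 in hippocampus, against 10.24, 10.23, 9.47 and 10.15 in frontal cortex, a difference of -3.43 ± 0.31. For these genes the lowest cortex array lay well above the highest hippocampus array.

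Cyp11b1, the adrenal enzyme that makes corticosterone, had 5.79, 6, 5.34 and 5.55 in hippocampus, against 9.46, 9.28, 9.47 and 9.48 in frontal cortex, and was thus at least 7.62-fold lower in hippocampus. Its near-identical relative Cyp11b3 was at least 2.43-fold lower. The probes of these paralogs may read each other's transcripts, so which gene gave the signal is uncertain. The list of largest falls also held the alpha-1B adrenergic receptor Adra1b (-2.28 ± 0.35), the Ras exchange factor Rasgef1c (-2.3 ± 0.17), the cadherin-related Cdhr1 (-2.27 ± 0.38), the muscle ring finger protein Trim54 (-2.19 ± 0.19) and the ligand Wnt10a (-2.07 ± 0.17). The odorant receptor gene Olr59 was at least 3.12-fold lower and the ferlin relative Fer1l4 at least 1.79-fold lower.

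The lists of cortical layers did not all lean one way. Of the layer 6 and subplate genes 5 of 10 were lower and 0 higher (median -0.62): the secreted neurexophilin Nxph3 (-1.19 ± 0.29), the corticotropin-releasing hormone binding protein Crhbp (-0.87 ± 0.23), the forkhead factor Foxp1 (-0.78 ± 0.14), the cell cycle inhibitor Rprm (at least 1.71-fold) and the complexin Cplx3 (at least 1.49-fold). Of the layer 2 to 4 genes 4 of 11 were lower and 3 higher, and of the layer 5 genes 3 of 13 each way. Lamp5, a membrane protein of upper layer neurons and some interneurons, had 7.45, 7.74, 7.67 and 7.33 in hippocampus, against 9.04, 8.44, 9.68 and 9.62 in frontal cortex, and its difference was -1.65 ± 0.2. The POU factor Pou3f2 was lower by -1.11, the activin subunit Inhba by -0.95 and the LIM-binding cofactor Ldb2 by -0.58. For Inhba and Ldb2 the arrays of the regions overlapped. Higher in hippocampus were the repressor Bcl6 (0.57 ± 0.12) and the potassium channel partner Kcnip2 (0.74 ± 0.17).

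Fezf2, the layer 5 determinant, was lower by -0.47 ± 0.14 (adjusted p = 0.0312) and lost its call without hippocampus array AH or AI or without cortex array AF, AG or AI, with differences of -0.57 to -0.37. Rorb, a nuclear receptor of layer 4, did not pass (-0.39 ± 0.14, adjusted p = 0.0719), but was called with the title code as a block (adjusted p = 0.0289) and without hippocampus array AF (-0.49, adjusted p = 0.0266). Tbr1, Foxp2, Drd1 and Htr1a were below the intensity minimum in all groups, and Cux2 was not analysed here.

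**Figure D2:**
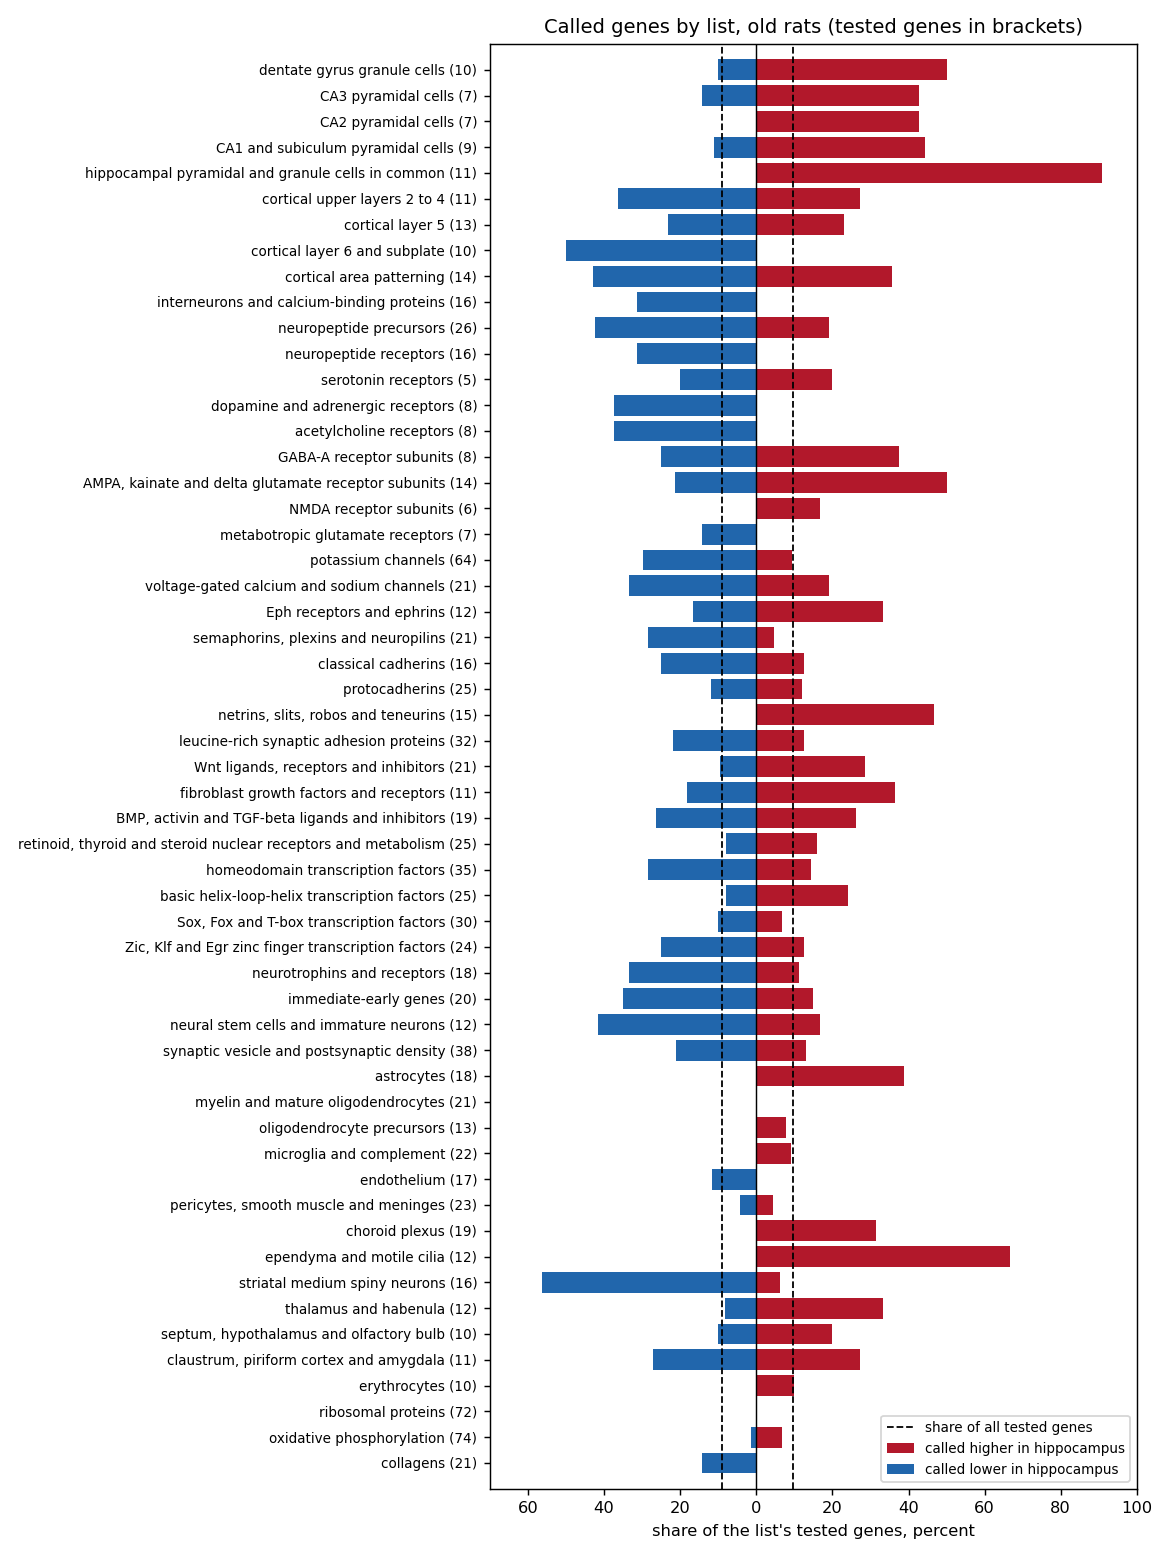
Share of each list's tested genes called higher (right) and lower (left) in hippocampus of old rats, with the number of tested genes in brackets and dashed lines at the shares of all tested genes, 9.65% and 9.04%. The genes common to hippocampal neurons and the ependyma list reach furthest right, the striatal and layer 6 lists furthest left, and the ribosomal and myelin lists have no bar.

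Among transcription factors, the bHLH family had 6 of 25 members higher and 2 lower. Beside Nhlh1 and Neurod1, the neuronal factor Bhlhe22 had 12.05, 12.18, 11.8 and 11.73 in hippocampus, against 10.1, 8.94, 9.93 and 9.83 in frontal cortex, a difference of 2.25 ± 0.2 (4.74-fold), and Neurod6 was 1.2 ± 0.14 higher. Lower were the clock factors Npas2 (-0.6 ± 0.14) and Bhlhe40 (-0.48 ± 0.1). In the homeodomain family 10 of 35 were lower and 5 higher. Lower were Meis2 (-1.52 ± 0.17), Tshz3 (-1.13 ± 0.19), the atypical homeodomain protein Hopx (-0.81 ± 0.14), Meis3 (-0.5 ± 0.09) and Emx1 (-0.49 ± 0.1). Higher were Pou3f1, Lhx2 (0.69 ± 0.11) and Emx2 (0.67 ± 0.13), and Lhx9 was at least 1.23-fold higher. Emx1 and Emx2, a pair that patterns the dorsal forebrain, thus differed in opposite directions.

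Of the genes that pattern cortical areas 6 of 14 were lower and 5 higher. The MADS-box factor Mef2c had 11.57, 11.16, 10.8 and 11.09 in hippocampus, against 12.98, 12.81, 12.75 and 12.99 in frontal cortex, a difference of -1.73 ± 0.2, with no overlap. Lmo4, a LIM-only protein, was lower by -0.87, the ETS factor Etv5 by -0.51, the cadherin Cdh6 by -1.38 and Cyp26b1, which breaks down retinoic acid, by -0.92. The orphan nuclear receptor Nr2f2, also called COUP-TFII, was higher (1.21 ± 0.2), and so was the retinoic acid-making enzyme Aldh1a1 (1 ± 0.1). In the nuclear receptor and retinoid list 4 of 25 were higher and 2 lower, or 24% called, against 18.7% over all tested genes. In the Zic, Klf and Egr list 6 of 24 were lower and 3 higher, with Klf6 (-0.66 ± 0.11) and Klf7 (-0.56 ± 0.12) lower and Klf3 higher (0.36 ± 0.08). Sox, Fox and T-box factors had 2 of 30 higher and 3 lower, and this 16.7% lay below the share over all tested genes.

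Several receptor families divided subunit by subunit. Of the AMPA and kainate receptor subunits and their partners 7 of 14 were higher and 3 lower. The AMPA subunits Gria1 (0.89 ± 0.17) and Gria2 (0.62 ± 0.1) were higher and Gria3 was lower (-0.66 ± 0.1). The 4 kept probes of Gria2 gave differences of 0.14 to 0.62. The AMPA receptor partner cornichon, Cnih2, had 11.26, 11.72, 11.87 and 12.02 in hippocampus, against 10.01, 10.14, 10.53 and 10.65 in frontal cortex, a difference of 1.38 ± 0.17. The kainate receptor partner Neto1 was higher (0.62 ± 0.11), while the transmembrane AMPA regulators Cacng2 (-0.68 ± 0.12) and Cacng3 (-0.6 ± 0.15) were lower. Of 6 NMDA receptor subunits 1 was higher, Grin2a (0.61 ± 0.16), and of 7 metabotropic glutamate receptors 1 was lower, Grm8 (-0.77 ± 0.16). These shares of 16.7% and 14.3% lay below the 18.7% called over all tested genes.

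GABA-A receptor subunits had 3 of 8 higher and 2 lower. The subunit Gabra5, which forms extrasynaptic receptors in hippocampal pyramidal cells, had 8.14, 8.42, 8.15 and 8.18 in hippocampus, against 7.36, 7.1, 7.36 and 7.47 in frontal cortex, a difference of 0.9 ± 0.1. Gabra2 (0.74 ± 0.13) and Gabrb1 (0.52 ± 0.1) were also higher. Gabrd, which forms extrasynaptic receptors too, was lower (-1.03 ± 0.13), and Gabra3 was at least 1.49-fold lower. Serotonin receptors had the widest split: Htr5b had 8.82, 9.09, 8.9 and 9.18 in hippocampus, against 5.25, 5.45, 5.58 and 5.66 in frontal cortex, and Htr2a had 6.15, 5.99, 5.8 and 5.42 in hippocampus, against 7.96, 7.6, 7.38 and 7.53 in frontal cortex. Htr5b was thus at least 5.7-fold higher and Htr2a at least 2.19-fold lower in hippocampus, and the other 3 tested serotonin receptors were not called.

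Dopamine and adrenergic receptors had 3 of 8 lower and 0 higher, and acetylcholine receptors 3 of 8 lower and 0 higher, among them the nicotinic subunit Chrna4 (-1.44 ± 0.2). Adra1b had 8.19, 7.7, 9.03 and 7.43 in hippocampus, against 10.76, 10.26, 10.21 and 10.25 in frontal cortex. Hippocampus array AH was the highest of its group for Adra1b and still lay more than 1 log2 below the lowest cortex array. The dopamine receptor Drd2 is described with the striatal genes.

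**Figure D3:**
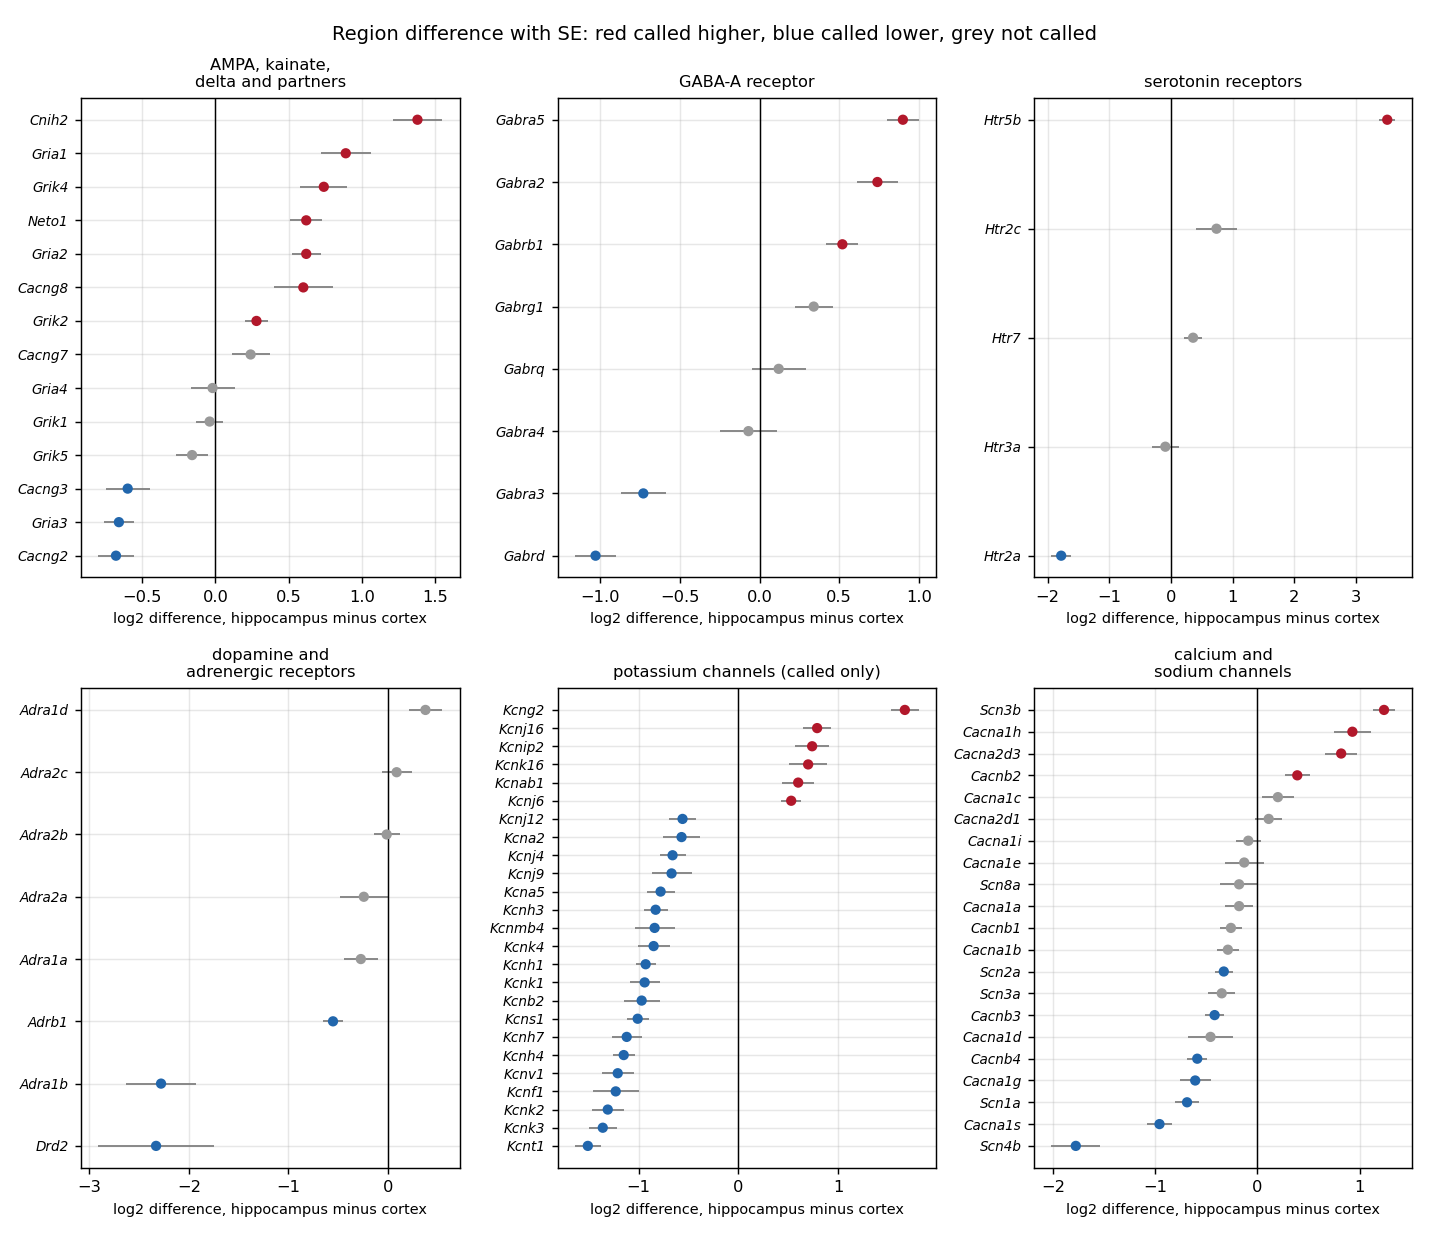
Difference between hippocampus and frontal cortex of old rats (log2, point, with its SE as a bar) for the tested members of 6 receptor and channel families, red where called higher, blue where called lower and grey where not called. For potassium channels the 25 called genes of 64 tested are shown, of which 19 lie left of 0. Genes below the intensity minimum in 1 region stand at their measured difference.

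Potassium channel genes were lower more often than higher, 19 against 6 of 64 tested, with a median of -0.15 log2. The sodium-activated channel Kcnt1 had 8.59, 9.22, 8.77 and 9.21 in hippocampus, against 10.29, 10.55, 10.4 and 10.57 in frontal cortex, a difference of -1.51 ± 0.13. Tandem-pore leak channels were among the falls, with Kcnk3 (-1.36 ± 0.14), Kcnk2 (-1.31 ± 0.16), Kcnk1 (-0.94 ± 0.15) and Kcnk4 (-0.85 ± 0.16). So were the ether-a-go-go relatives Kcnh4 (-1.15 ± 0.11), Kcnh1 (-0.93 ± 0.1) and Kcnh3 (-0.83 ± 0.12), and the silent or modifying subunits Kcnv1 (-1.21 ± 0.16) and Kcns1 (-1.01 ± 0.11). Against these, the modifying subunit Kcng2 was higher (1.67 ± 0.14), as were the beta subunit Kcnab1 (0.6 ± 0.16) and Kcnj6 (0.53 ± 0.1), which carries G protein-activated inward current. Calcium and sodium channels had 7 of 21 lower and 4 higher. The sodium channel beta subunits went apart, Scn3b higher (1.24 ± 0.11) and Scn4b lower (-1.78 ± 0.24), the second of which is also a striatal gene. Among T-type calcium channels Cacna1h was higher (0.93 ± 0.18) and Cacna1g lower (-0.61 ± 0.15).

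Neuropeptide precursors had 11 of 26 lower and 5 higher. Higher were neurotensin, Nts, with 8.92, 8.79, 9.02 and 8.56 in hippocampus, against 5.42, 6.13, 5.78 and 5.53 in frontal cortex, which is at least 5.03-fold, and neuromedin B, Nmb (2.12 ± 0.31). Prodynorphin, Pdyn, an opioid precursor of granule cells, was 1.77 ± 0.39 higher, and secretogranin II, Scg2, 1.18 ± 0.12. Lower were cortistatin, Cort (-1.79 ± 0.19), cholecystokinin, Cck (-1.27 ± 0.18), vasoactive intestinal peptide, Vip (-1.21 ± 0.27), gastrin-releasing peptide, Grp (-1.1 ± 0.23), Crh (-1 ± 0.18) and neuropeptide Y, Npy (-0.86 ± 0.19). All 5 called members of 16 neuropeptide receptors were lower, including the cholecystokinin receptor Cckbr (-1.6 ± 0.24), the neuropeptide Y receptor Npy1r (-0.81 ± 0.16), the VIP receptor Vipr1 (-0.74 ± 0.12) and the tachykinin receptor Tacr3 (at least 3.05-fold).

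The interneuron list had 5 of 16 lower and 0 higher. Cck, Vip and Npy are named above. Somatostatin, Sst, was lower by -0.66 ± 0.22 (adjusted p = 0.0456) and parvalbumin, Pvalb, by -0.37 ± 0.12 (adjusted p = 0.0449). Both calls were marginal: Sst was called in 2 and Pvalb in 3 of the 8 fits that left out 1 array, with differences of -0.86 to -0.51 for Sst and -0.44 to -0.28 for Pvalb. Sst lost its call without hippocampus array AG, AH or AI or cortex array AF, AG or AI, and Pvalb without hippocampus array AG, AH or AI or cortex array AF or AG. Gad1, the GABA-synthesising enzyme of all interneurons, was not called (-0.07 ± 0.16, adjusted p = 0.804), with 12.15 ± 0.21 in hippocampus and 12.22 ± 0.23 in frontal cortex (SD).

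Genes of axon guidance and adhesion also divided. The netrin, slit, robo and teneurin list had 7 of 15 higher and 0 lower, with Slit2 (0.74 ± 0.11), Slit3 (0.39 ± 0.1), the netrin receptor Unc5a (0.78 ± 0.13) and Tenm2 (0.61 ± 0.12). Semaphorins, plexins and neuropilins had 6 of 21 lower and 1 higher, with the secreted Sema3f (-1.42 ± 0.28) and Sema3c (-0.71 ± 0.13) and the membrane-bound Sema4f (-0.62 ± 0.13) and Sema4a (-0.46 ± 0.12) lower. Of 12 Eph receptors and ephrins 4 were higher, among them Epha4 (0.69 ± 0.13) and the ligand Efnb3 (0.9 ± 0.15), and Ephb6 (-1.14 ± 0.11) and Ephb3 (-0.86 ± 0.15) were lower.

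Cadherins had 4 of 16 lower and 2 higher, with Cdh6 and Cdh22 (-0.9 ± 0.11) lower, Cdh8 higher (0.44 ± 0.09) and Cdh9 at least 2.25-fold higher. Protocadherins had 3 of 25 each way, or 24% called, not far from the 18.7% over all tested genes. Pcdh19 (1.14 ± 0.15), Pcdh8 (0.59 ± 0.13) and Pcdh20 (0.59 ± 0.12) were higher, and Pcdh10 (-0.87 ± 0.1), Pcdh7 (-0.64 ± 0.17) and Pcdh18 (-0.29 ± 0.08) lower. Pcdh18 lost its call with the title code as a block (adjusted p = 0.0584) and without hippocampus arrays AH and AI and cortex array AG (adjusted p = 0.127), as did Pcdh7 without those 3 arrays (-0.32, adjusted p = 0.338). Of 32 leucine-rich and related synaptic adhesion genes 7 were lower and 4 higher. The paralogous fibronectin leucine-rich proteins split, Flrt3 higher (0.55 ± 0.11) and Flrt1 (-0.72 ± 0.15) and Flrt2 (-0.78 ± 0.15) lower, and Lrrtm3, a neurexin ligand, was lower (-1.01 ± 0.11). The extracellular matrix gene Col6a1 was lower by -1.57, 1 of 3 collagens called of 21 tested. That share of 14.3% lay below the 18.7% over all tested genes.

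Wnt pathway genes had 6 of 21 higher and 2 lower. The ligand Wnt4 was 1.62 ± 0.18 higher, the receptor Fzd1 1.19 ± 0.13, and the secreted Wnt binder Frzb 1.24 ± 0.14, while the ligands Wnt10a and Wnt16 (-1.58 ± 0.2) were lower. Fibroblast growth factor genes had 4 of 11 higher, including the receptor Fgfr1 (1.12 ± 0.15) and the intracellular Fgf13 (0.85 ± 0.11), and 2 lower, including the intracellular Fgf12 (-0.42 ± 0.1). The BMP, activin and TGF-beta list had 5 of 19 each way, with Tgfb3 (0.9 ± 0.12) and Inhbb (0.39 ± 0.09) higher and Inhba and the follistatin relative Fstl4 (-0.89 ± 0.14) lower. Inhba and Inhbb are the alternative beta subunits of activin. Inhbb lost its call with the mean of all probes (0.24, adjusted p = 0.0544) and with the old arrays fitted alone (adjusted p = 0.0562), and the arrays of the regions overlapped for Inhba.

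Neurotrophin and growth factor genes had 6 of 18 lower and 2 higher. The neurotrophins Bdnf (0.82 ± 0.14) and Ntf3 were higher and the receptor Ntrk2, which binds Bdnf, was lower (-0.75 ± 0.14), although its 4 kept probes differed in sign, from -1.15 to 0.46. Also lower were the neurturin receptor Gfra2 (-1.92 ± 0.18) and the growth factor binding proteins Igfbp6 (-1.41 ± 0.25) and Igfbp4 (-1.12 ± 0.14). The 13 kept probes of Gfra2 gave differences of -1.99 to -0.54.

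Genes that follow neuronal activity were lower in 7 of 20 and higher in 3. Egr1, a zinc finger factor induced within minutes of activity, had 9.91, 9.92, 9.41 and 9.5 in hippocampus, against 10.84, 11.53, 11.1 and 10.45 in frontal cortex, a difference of -1.3 ± 0.21 (adjusted p = 0.00037). Every cortex array lay above every hippocampus array for this gene. Egr4 (-0.9 ± 0.17), Ier5 (-0.88 ± 0.13) and Homer1 (-0.87 ± 0.11), a scaffold of the postsynaptic density, were lower too. Bdnf, the nuclear receptor Nr4a3 (0.85 ± 0.19) and the phosphatase Dusp5 (0.93 ± 0.12) were higher, although the arrays of the regions overlapped for Nr4a3. In the list of neural stem cells and immature neurons 5 of 12 were lower, among them Stmn1 (-0.95 ± 0.1) and doublecortin, Dcx (-0.55 ± 0.14), microtubule proteins of growing neurons. The 2 higher members, Neurod1 and Bhlhe22, are also factors of mature neurons.

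Synaptic vesicle and postsynaptic genes had 8 of 38 lower and 5 higher. The plasma membrane syntaxin Stx1a (-1.27 ± 0.14) and the calcium sensor Doc2a (-1.19 ± 0.2) were lower. The vesicular glutamate transporters Slc17a7 (0.53 ± 0.13) and Slc17a6 (1.23 ± 0.25) and the kinase subunit Camk2b (0.81 ± 0.13) were higher. For Slc17a7 the arrays of the regions overlapped, and it was not called with the old arrays fitted alone (adjusted p = 0.069) or without hippocampus arrays AH and AI and cortex array AG (0.43, adjusted p = 0.104). Slc17a6, Synpr and Cdh9 also stand on lists of thalamic, claustral or amygdalar genes.

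Among glia, astrocyte genes were higher in 7 of 18 and lower in 0, with a median of 0.33 log2. Gfap, the filament protein of astrocytes, had 9.82, 10, 10.09 and 10.79 in hippocampus, against 8.69, 9.45, 9.11 and 8.94 in frontal cortex, a difference of 1.13 ± 0.18 (2.18-fold, adjusted p = 0.000378). The water channel Aqp4 (0.74 ± 0.15) and the matrix protein Sparcl1 (0.66 ± 0.16) were higher too. The 11 kept probes of Gfap gave differences of 0.48 to 1.16 log2, and the 5 of Aqp4 gave 0.36 to 0.74. Sparcl1 was not called with the old arrays fitted alone (adjusted p = 0.0614) or without hippocampus array AI and cortex array AG (0.38, adjusted p = 0.0601). The myelin list had 0 of 21 members called, although its mean differed between arrays of 1 region, from -0.15 to 0.49 in hippocampus and from -0.17 to 0.52 in frontal cortex. Mbp, myelin basic protein, had 16.36 ± 0.22 in hippocampus and 16.36 ± 0.15 in frontal cortex (SD). Of 22 microglia and complement genes 2 were higher, 1 of them Gpnmb, a glycoprotein of phagocytes (0.56 ± 0.11). Of 13 oligodendrocyte precursor genes 1 was higher, the phosphatase Ptprz1 (0.39 ± 0.09). Of 17 endothelial genes 2 were lower, 1 of them Egfl7 (-0.61 ± 0.15), and of 23 pericyte and meningeal genes 1 was called each way. The called shares of the microglia, precursor, endothelial and pericyte lists were 9.09%, 7.69%, 11.8% and 8.7%. All lay below the 18.7% over all tested genes.

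Genes of the ventricle stood among the largest rises. Ttr, transthyretin, the thyroid hormone carrier that choroid plexus secretes, had 16.03, 12.79, 16.97 and 17.29 in hippocampus, against 10.56, 11.92, 10.35 and 11.21 in frontal cortex. Its difference of 4.76 ± 1.1 (27.1-fold, adjusted p = 0.00625) came with an SD of 2.06 among hippocampus arrays, where AG was lowest as it was for the whole choroid plexus list. Of 19 choroid plexus genes 6 were higher and 0 lower (median 1.86). The folate receptor Folr1 had 7.86, 6.92, 10.02 and 11.69 in hippocampus, against 5.66, 5.86, 6.15 and 5.65 in frontal cortex, and was at least 6.19-fold higher. The secreted BMP inhibitor Sostdc1 was at least 7.46-fold and the homeodomain factor Otx2 at least 3.68-fold higher. Folr1 and Otx2 lost their calls without hippocampus array AH or AI, and in the 8 fits that left out 1 array Sostdc1 kept its call only without hippocampus array AF or AG.

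Ependymal and cilia genes had 8 of 12 members higher and 0 lower (median 0.94). Among the higher were the ciliary regulator Foxj1 (1.62 ± 0.38), the filament protein Tekt4 (0.89 ± 0.13), Tmem212 (at least 2.97-fold) and Cfap126 (at least 2.3-fold). The mean of the ependymal list was -0.22, 0.12, 0.95 and 0.84 in hippocampus, against -0.57, -0.54, -0.26 and -0.41 in frontal cortex. Without hippocampus arrays AH and AI and cortex array AG, the difference was 3.7 for Ttr (adjusted p = 0.102) and 0.85 for Foxj1 (adjusted p = 0.11), and Folr1 was not called (adjusted p = 0.307). Calml4 (2.2, adjusted p = 0.000736) and Tekt4 (0.65, adjusted p = 0.00968) kept their calls there. In that fit 1 of the 19 choroid plexus genes was higher and 0 lower (median 0.35), and 1 of the 12 ependymal genes was called each way (median 0.47).

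**Figure D4:**
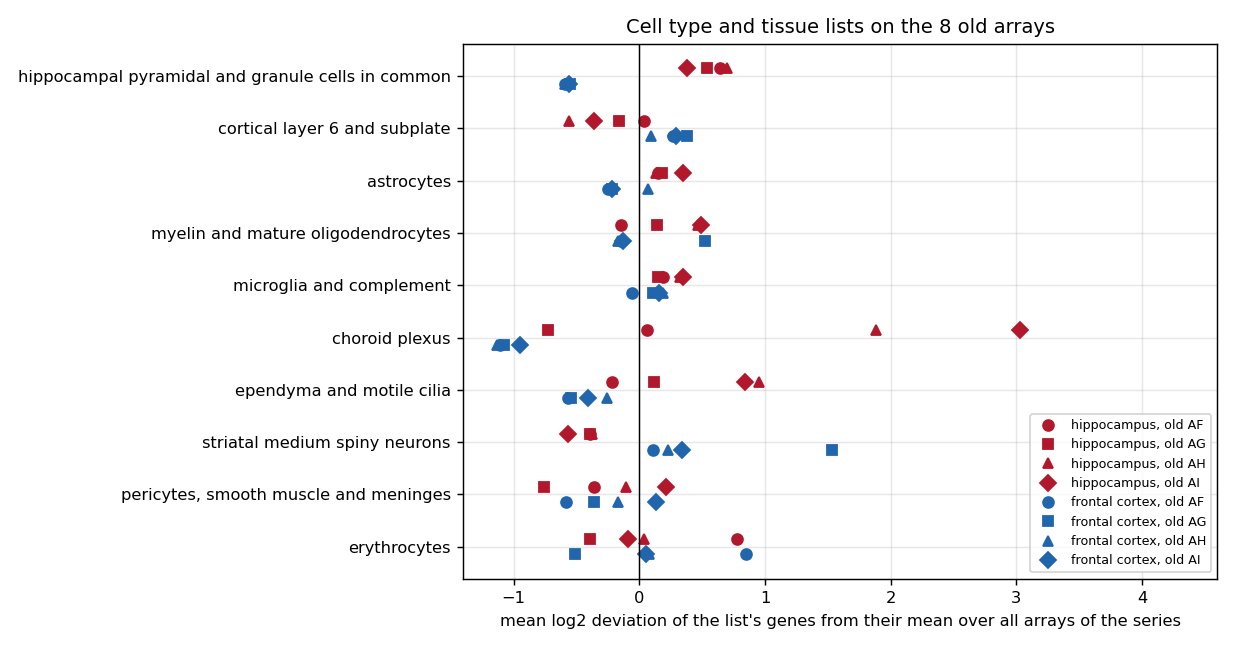
Mean over a list's genes of the deviation from each gene's mean over all 16 arrays (log2), 1 symbol per array with its code, hippocampus (red) above frontal cortex (blue). The hippocampal neuron list separates the regions with little spread, the choroid plexus list runs from -0.73 to 3.03 among hippocampus arrays, and cortex array AG stands at 1.53 in the striatal list.

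Striatal genes had 9 of 16 members lower in hippocampus and 1 higher, with a median of -1.07 log2. The dopamine receptor Drd2 had 7.51, 7.23, 7.07 and 7.04 in hippocampus, against 8.84, 11.11, 8.92 and 9.31 in frontal cortex, the signalling regulator Rgs9 had 7.78, 7.99, 8.32 and 8.03 in hippocampus, against 9.59, 11.63, 9.51 and 9.81 in frontal cortex, and the adenosine receptor Adora2a had 5.92, 6.42, 6.5 and 6.09 in hippocampus, against 7.5, 9.73, 7.85 and 7.91 in frontal cortex. In all of them cortex array AG was more than 1 log2 above the next cortex array, and the other cortex arrays still lay above all hippocampus arrays. With the lists' 3 outlying arrays left out, Drd2 differed by -1.66 (adjusted p = 0.144) and Tac1, the substance P precursor, by -1.09 (adjusted p = 0.158), and Adora2a, at least 3.38-fold lower with all arrays, was not called (adjusted p = 0.114). Called there too were Rgs9 (-1.76), the enkephalin precursor Penk (-1.5), the adenylyl cyclase Adcy5 (-0.63), the small GTPase Rasd2 (-1.06) and Scn4b (-1.59). Of the striatal list 5 members were then lower and 1 higher (median -0.74). With all arrays the differences were -2.33 ± 0.58 for Drd2, -2 ± 0.47 for Tac1, -1.88 ± 0.34 for Penk, -1.1 ± 0.21 for Adcy5 and -1.09 ± 0.18 for Rasd2. The exception that was higher in hippocampus is Pdyn, named above. The part of striatal and choroid plexus tissue in these differences was not tested. Of lists of other neighbouring tissue, 4 of 12 thalamic and habenular genes were higher and 1 lower, and 3 of 11 claustral, piriform and amygdalar genes were called each way. Of septal, hypothalamic and olfactory bulb genes 2 of 10 were higher and 1 lower. Differences in this last list ran from -2.27, the value of Cdhr1, to 2.12, the value of Nmb. Of 10 erythrocyte genes 1 was higher, or 10%, against 18.7% over all tested genes.

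Other lists were counted without the same 3 arrays, where 579 of the 10056 tested genes were higher and 666 lower. The genes common to hippocampal neurons then had 9 of 11 higher (median 1.03), the netrin and slit list 9 of 15, the bHLH factors 7 of 25 and the astrocyte list 4 of 18 (median 0.27), while potassium channels had 14 of 64 lower and 5 higher. Layer 6 genes had 3 of 10 lower (median -0.34), interneuron genes 2 of 16, neuropeptide precursors 6 of 26 with 4 higher, and homeodomain factors 8 of 35 with 5 higher. For neuropeptide receptors 4 of 16 were lower and 2 higher (median 0.03), where with all arrays none was higher.

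Most genes used by every cell differed little. None of the 72 tested cytosolic ribosomal protein genes was called, with 0 called either way by limma. Of 74 oxidative phosphorylation genes 5 were higher and 1 lower, shares below those over all genes. The lower one, Cox6a2, is a muscle-type subunit of cytochrome c oxidase found in parvalbumin interneurons in mouse (-0.93 ± 0.14). Differences in this list ran from -0.93 to 1.94 log2, with a median absolute difference of 0.1.

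The arrays of young rats, which share none with the old ones, were used to ask whether the same differences stand at the younger age. In young rats 1392 genes were called between hippocampus and frontal cortex, or 13.8% of those tested. Of the 1879 genes called in old rats 1849 (98.4%) had the same sign in young rats, against 70.5% of the genes not called in old rats. In young rats 1137 of them were called with the same sign, which is 60.5% of the old calls and 81.7% of the young calls, and 0 were called with the opposite sign. Of the 299 genes that differed 2-fold or more in old rats 0 had the opposite sign, and the median ratio of the young to the old difference was 0.95.

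**Figure D5:**
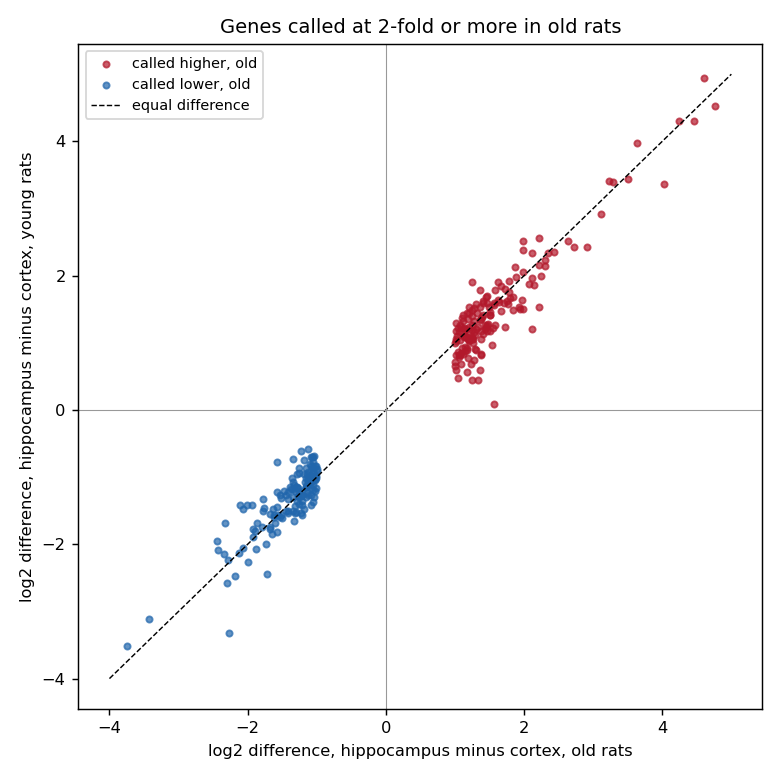
Difference between hippocampus and frontal cortex (log2) in old rats (horizontal) and young rats (vertical) for the 299 genes called at 2-fold or more in old rats, red for higher and blue for lower, with a dashed line where both are equal. Genes below the intensity minimum in 1 region stand at their measured difference. All points keep their sign, and the median ratio of the young to the old difference is 0.95.

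Leading genes had like values at both ages. C1ql2 differed by 4.24 log2 in old and 4.3 ± 0.24 in young rats, Fibcd1 by 3.23 and 3.41 ± 0.12, Cbln2 by -2.34 and -2.14 ± 0.13, and Ucma by -3.43 and -3.11 ± 0.31. Cdhr1 differed by -2.27 ± 0.38 in old and -3.32 ± 0.38 in young rats, and Drd2 by -2.33 ± 0.58 and -1.69 ± 0.58. The test of the difference between ages (the region difference in old minus that in young rats) called 0 of 10056 genes (limma, 0%). An unadjusted p under 0.05 was reached by 266, a smaller share than the 0.05 that chance alone gives. The smallest adjusted p was 0.999. This test called 0 genes in each of the other settings in which both ages were fitted as well. The 3 smallest unadjusted p-values belonged to genes whose means lay below the intensity minimum in both regions of old rats: the Src-like adaptor Sla (unadjusted p = 0.000437), Spp1, osteopontin, a secreted phosphoprotein (unadjusted p = 0.000457), and the neuromedin B receptor Nmbr (unadjusted p = 0.000482). Next was Frzb, which differed by 1.24 ± 0.14 in old and 0.44 ± 0.14 in young rats, a difference between ages of 0.81 ± 0.19 (unadjusted p = 0.00067). After it came the nucleolar ATPase Nvl, with -0.42 ± 0.09 in old and 0.11 ± 0.09 in young rats (unadjusted p = 0.00082). None of these passes after adjustment, and a test that does not pass does not show that the ages are alike.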

How the data were processed

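Total RNA of each dissected region was labelled with Cy3 by the authors and hybridised to one-colour arrays, 1 per sample, per the labels' protocols. Scans were read with Agilent Feature Extraction, per the submitters' processing notes, and its version, the background correction and the normalization were not given in the sources used here. Used here were log2 signals as the authors deposited them in the series value table (4.94 to 17.8, the same median of 6.77 on every array). The log2 scale was read from this range. A raw signal table has 16 columns of per-sample values that match no sample by name, and they were not used. The planned tests assumed scanner signals and were run on the log2 values instead.

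Of 62976 spots, 45904 have a listed gene, of which 39826 had the symbol updated by accession from RefSeq's GRCr8 table. Each array was shifted to a common 75th percentile over gene probes. For each of 16974 genes the probe with the highest mean signal was taken, and the 10056 genes with at least 1 group mean over the 40th percentile of probe means (6.49) were tested. Negative control spots averaged 4.99 (308 spots).

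The means of the 4 groups were fitted to all 16 arrays with limma 3.58.1 in R 4.3.3 (12 residual and 4.07 prior degrees of freedom), so that the young arrays add to the estimate of the spread. The moderated p-values (two-sided) received the Benjamini-Hochberg adjustment across the 10056 genes, and called means an adjusted p under 0.05. No correction for region dissection, blood or array was made. The pairing check on the title codes found correlations above 0.1 for 2 of 4 codes, so the main fit has no block. Alternatives were other normalizations, filters, probe summaries and variance settings, array weights, a replicate block, a fold minimum and arrays left out.

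The 55 gene lists and the rule for names were chosen with earlier results of these data known. Named are the 15 largest called differences each way with no overlap of arrays, up to 6 called members each way of each list (in the text fewer, mainly those called in every fit without 1 array), the 5 smallest p of the difference between ages and a fixed set of 22 genes. Kcnk1, Kcnk4, Kcnh3 and Kcnv1 were named after their values were seen. With arrays, the precision is limited by how many there are.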

Additional observations from a re-analysis of the deposited data

Results flagged for a closer look

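For each named gene the 4 arrays of a region were examined for 1 array far from the others, by the gap to its neighbour as a share of the group's range (Dixon's ratio above its 95% critical value). Of 410 gene and region pairs 30 had such an array, or 7.3%, where chance gives about 1 in 20. Values are log2 signals. Array AF of hippocampus stood high for Bcl6 at 11.43 (the others' median 10.94) and Kcnab1 at 10.68 (the others' median 10.3). Array AG of hippocampus stood high for Ephb6 at 10.88 (the others' median 10.57) and Gabra5 at 8.42 (the others' median 8.15). Array AH of hippocampus stood high for Gabrd at 10.94 (the others' median 10.43), and low for Igfbp6 at 8.34 (the others' median 9.05). Array AI of hippocampus stood high for Cacna1h at 8.96 (the others' median 8.13), and low for Etv5 at 11.35 (the others' median 11.86), Flrt2 at 6.58 (the others' median 7.17), Inhbb at 7.75 (the others' median 8.1), Neto1 at 10.36 (the others' median 10.72), Neurod1 at 9.24 (the others' median 9.51) and Pvalb at 11.49 (the others' median 11.8). Array AF of frontal cortex stood high for Adra1b at 10.76 (the others' median 10.25) and Wnt10a at 9.57 (the others' median 9.28), and low for Cabp7 at 8.45 (the others' median 8.84). Array AG of frontal cortex stood high for Adcy5 at 11.96 (the others' median 10.83), Grik4 at 7.45 (the others' median 6.87), Meis2 at 9.55 (the others' median 9.03), Ntrk2 at 13.48 (the others' median 12.97), Pou3f2 at 8.82 (the others' median 8.32), Prss12 at 8.57 (the others' median 8.13) and Rgs9 at 11.63 (the others' median 9.59), and low for Calb1 at 7.49 (the others' median 8.52), Cyp11b1 at 9.28 (the others' median 9.47), Fgf13 at 11.26 (the others' median 11.81) and Sparcl1 at 13.66 (the others' median 14.41). Array AH of frontal cortex stood high for Cfap126 at 6.08 (the others' median 5.78), and low for Ucma at 9.47 (the others' median 10.23). Array AI of frontal cortex stood high for Pcdh19 at 10.05 (the others' median 9.66). Cortex array AG accounts for 11 of the 30, the largest number of any array, and it also had the highest striatal list mean, of which Adcy5 and Rgs9 are members. The part of striatal tissue in the other values was not tested.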

How the results depend on the processing

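The count of 1879 genes called between hippocampus and frontal cortex of old rats stayed within 1.5 times its value under 19 of 22 other settings, between 1332 and 1971, and 3 settings moved it further. With the 8 old arrays fitted alone 1039 genes were called (503 higher and 536 lower), 1027 of them among the 1879, with fewer arrays to estimate the spread. Requiring a fold of more than 1.5 in the test itself left 198 (109 higher and 89 lower). Without hippocampus AH and AI and cortex AG, a setting chosen after seeing the data, 1245 were called (579 higher and 666 lower), 1021 of them among the 1879, from fewer samples. Leaving out 1 array at a time gave 1506 to 1971 calls, and without AF of both regions, also chosen after seeing the data, 1609. All 1879 genes kept their sign in the 8 fits that left out 1 array, and 1172 kept their call in each.

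With the title code as a replicate block 1769 genes were called, 1588 of them shared. The deviations of arrays with the same code correlated at 0.28, -0.01, -0.1 and 0.27 for AF, AG, AH and AI. The erythrocyte means were highest on AF and lowest on AG in both regions. These values do not settle whether a code is 1 animal, and the main fit has no block. The share of called genes with the same sign in young rats ran from 95.2% to 100% over the settings. Of the 198 named genes that were called, 192 kept the call in every fit without 1 array. Names were chosen mainly by that property, so this count does not measure stability. Over all called genes 1172 of 1879 kept it. Of the same genes 11 were not called with the 8 old arrays alone, 13 with array weights, 14 without hippocampus AI and cortex AG, 34 without hippocampus AH and AI and cortex AG, and 124 with the fold minimum. Beside the fits without 1 array there were 14 other settings. Of these, Sostdc1 was called in 5, Sst in 6, Fezf2 and Pvalb in 7 and Otx2 in 9. Adora2a, Drd2, Folr1, Pcdh7 and Slc17a7 were called in 10, and Crhbp, Dcx, Etv5, Inhbb, Nxph3 and Sparcl1 in 11. Of the 13 settings that tested them, Pcdh18 was called in 7 and Cfap126 in 9. Kept probes of the same gene differed in sign for 22 of 1608 called genes with more than 1 probe. The number of arrays limits the precision, and genes below the intensity minimum were not tested.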
